A study of Mus musculus with 8 samples.

Results

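The genes described here encode the enzymes that add and remove acetyl groups on histones and the proteins that read or scaffold that mark. They were chosen by name, as the rows of the gene count table with 1 of 33 gene symbols out of 54532 genes, and the class IIa histone deacetylases were not included. The choice was made with earlier results of these data known. All 33 were found once each, and all 33 were among the 16745 genes that passed the filter on low counts. They comprise 10 acetyltransferases (writers), 13 deacetylases (erasers, of which 7 are HDACs and 6 are sirtuins), 9 readers or scaffolds, and Acss2, which makes acetyl-CoA.

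RNA was sequenced from the medial prefrontal cortex of adult male C57BL/6 mice in a study of conditioned place preference for methamphetamine (METH), in which an animal learns to prefer the compartment where it received the drug. The retrieval group and the non-retrieval group have 4 libraries each, every library from a pool of 2 to 3 mice, with tissue taken 1 h after the preference test ended. What was done with non-retrieval mice is not described in the labels, so placement in the apparatus and retrieval of the memory cannot be told apart. Since each library is a pool, the spread given below is between pools and not between single mice.

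Acetylation of lysines on histone tails loosens the hold of the tail on DNA and creates docking sites for bromodomains, and it is removed by zinc-dependent HDACs and by sirtuins, which use NAD. In neurons the coactivators Crebbp and Ep300 are recruited by the transcription factor CREB after activity, and HDAC2 is known as a brake on memory formation in mice. Most of these proteins are regulated by recruitment and modification as well as by the amount of their mRNA.

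Total counts ran from 25013503 to 29547978 per library. All 12 tested markers of cortical excitatory neurons were present, from 18.8 CPM (counts divided by the scaled library size) for Foxp2 to 3500 CPM for Camk2a. Fos, a marker of recent neuronal activity, averaged 60.8 ± 4.28 CPM in retrieval and 13.1 ± 4.37 CPM in non-retrieval libraries (SD, n = 4 each; log2 fold change 2.21, SE 0.16). Libraries also differed in composition. Across 20 myelin markers the summed level was 4690 to 6671 CPM in retrieval and 3934 to 4570 CPM in non-retrieval libraries, and retrieval replicate 2 stood apart with 945 CPM over 15 striatal neuron markers, against 650 to 755 CPM in the other 3 retrieval libraries and 661 to 748 CPM in non-retrieval libraries. In bulk tissue, fewer cells of a type and less RNA per cell cannot be told apart.

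Measured per length of the gene model, the members spanned a wide range of levels. Hdac11, the only class IV deacetylase, had the highest level per length, with 41.3 ± 3.08 FPKM (CPM per kilobase of gene model) in retrieval and 43.7 ± 2.82 FPKM in non-retrieval libraries (SD, n = 4 each). Next came the BET bromodomain gene Brd2 with 30.8 ± 1.39 FPKM in retrieval and 31.1 ± 1.24 FPKM in non-retrieval libraries, and the mitochondrial sirtuin Sirt5 stood lowest with 1.44 ± 0.034 FPKM in retrieval and 1.603 ± 0.206 FPKM in non-retrieval libraries. Over all 8 libraries, Hdac11 did not overlap with Brd2, nor Brd2 with Sirt2, the next in order. Of the 32 neighbouring pairs in this order, 7 were separated without overlap, so the order of most neighbours was not resolved. The paralogues Hdac2 and Hdac1 were far apart, at 14.2 ± 0.815 and 5.19 ± 0.283 FPKM in retrieval libraries and 15.7 ± 0.610 and 5.37 ± 0.348 FPKM in non-retrieval libraries.

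**Figure D1:**
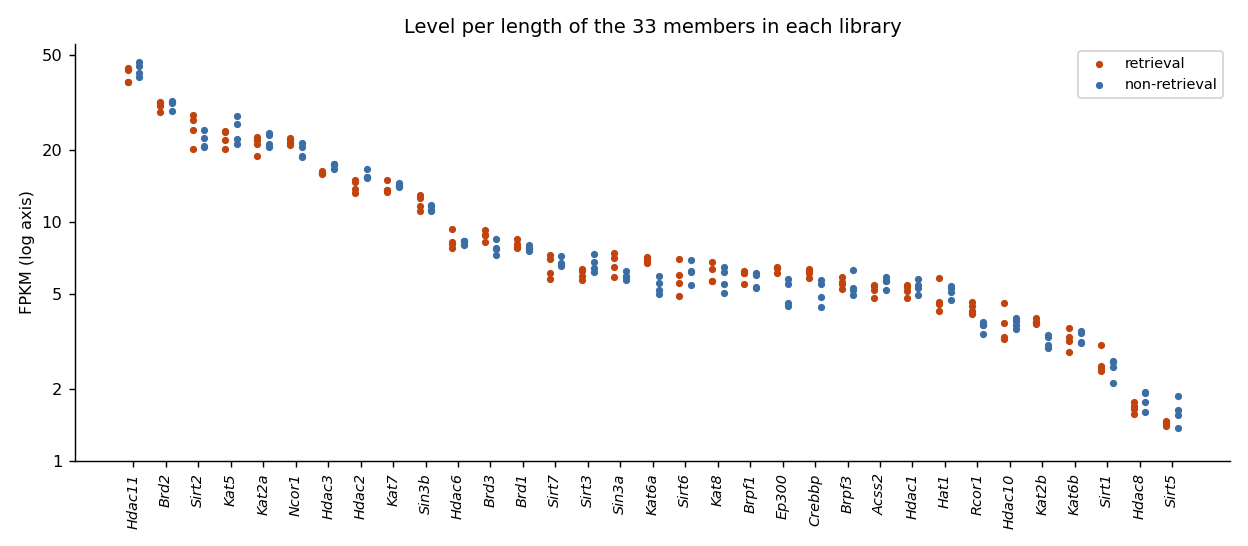
Level per length of each of the 33 members in each library, in FPKM on a log axis, with genes ordered by their mean over the 8 libraries; each point is 1 library, retrieval in red on the left and non-retrieval in blue on the right. Hdac11 and Brd2 lie above all others, and most neighbours further down overlap.

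Setting retrieval against non-retrieval libraries asked whether the mRNA of this machinery differed after the memory test. Kat6a and Ep300, both acetyltransferases, rose, and none of the 33 members fell at an adjusted p under 0.05. That is 6.06% of the members, against 4.57% of all tested genes called in either direction, so the share of members called was near the background. By direction, 3.67% of all tested genes rose and 0.902% fell. The median log2 fold change was -0.02 over the members and -0.01 over all tested genes, with 16 members above 0 and 17 below 0. The other 31 members did not pass, with log2 fold changes between -0.16 and 0.27 and standard errors between 0.06 and 0.11 (edgeR quasi-likelihood test, adjusted over all tested genes).

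Counts without adjustment were somewhat higher. At an unadjusted p under 0.05 there were 8 members (24.2%), 7 higher and 1 lower, against 18.5% of all tested genes (11.2% higher and 7.27% lower). The groups did not overlap for 7 members (21.2%), against 11.1% of all tested genes (6.59% above and 4.53% below). Members varied less between pools than the background. Their median SD was 5.45% of the mean in retrieval and 6.45% in non-retrieval libraries, against 10.3% and 9.11% over all tested genes. No share over genes of like level or spread was taken, so why the shares differ was not tested. Retrieval lay wholly above for Kat6a, Ep300, Kat2b, Crebbp and Rcor1 and wholly below for Hdac2 and Hdac3. The 5 above encode acetyltransferases or a corepressor scaffold, and both below encode class I deacetylases. The number of members called depended on the method, in both directions. DESeq2 called 5 members and 6.27% of all tested genes, limma-voom with library quality weights 5 members and 7.06%, edgeR at an adjusted p under 0.1 5 members and 7.01%, and edgeR with 1 surrogate variable 6 members and 10.7%. Fewer members were called with an offset for gene length (1) and with the myelin marker level as a covariate (0), and with upper-quartile factors or a striatal marker covariate the number was 2.

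**Figure D2:**
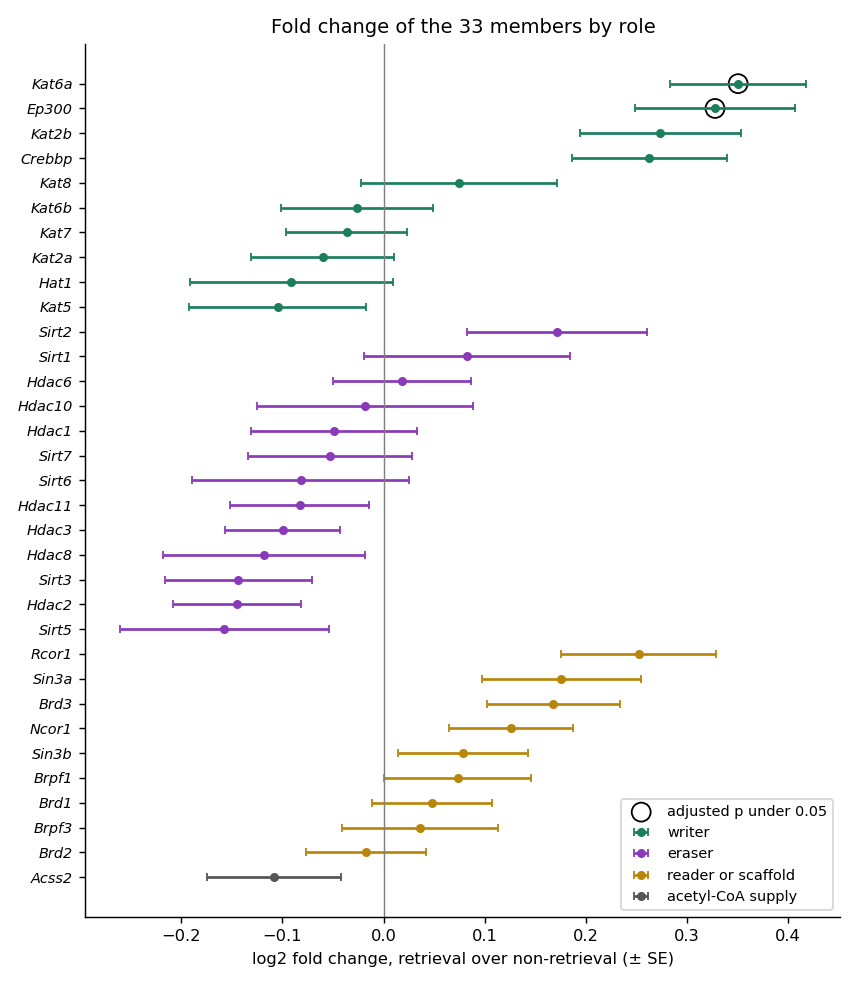
Log2 fold change of each member, retrieval over non-retrieval, with its standard error, grouped by role and sorted within each role; circles mark an adjusted p under 0.05. Kat6a and Ep300 at the top of the writers are the only members circled, and 10 of the 13 erasers lie below 0, against 8748 of all 16745 tested genes.

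Among the writers, Kat6a had the smallest p. It encodes MOZ, a MYST-family acetyltransferase of histone H3, and lies on chromosome 8 from 22859535 to 22943259 in the build GRCm38 (ENSMUSG00000031540). Its level was 65.4, 62.8, 64.1 and 61.7 CPM in retrieval replicates 1 to 4 and 51.1, 54.7, 45.8 and 47.6 CPM in non-retrieval replicates 1 to 4. Every retrieval library was above every non-retrieval library. The means were 63.5 ± 1.58 CPM in retrieval and 49.8 ± 3.96 CPM in non-retrieval libraries (SD, n = 4 each), a 1.28-fold difference (log2 fold change 0.35, SE 0.07; edgeR adjusted p = 0.00642). The call held with any 1 library left out, at adjusted p of 0.00473 to 0.0374. It ended when the mean level of the myelin markers was a covariate (log2 fold change 0.35; edgeR adjusted p = 0.131), a fit that left 0.866% of all tested genes called. That covariate was largely aligned with the groups, at 6.28 to 6.72 log2 CPM in retrieval and 6.08 to 6.30 log2 CPM in non-retrieval libraries. With a call lost in this fit, myelin content and group therefore cannot be told apart.

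Ep300 encodes p300, which with its paralogue Crebbp forms the KAT3 family of transcriptional coactivators. It lies on chromosome 15 from 81585351 to 81652077 (ENSMUSG00000055024). Ep300 had 91.9, 92.4, 87.4 and 91.4 CPM in the 4 retrieval libraries and 82.0, 78.4, 63.4 and 65.6 CPM in the 4 non-retrieval libraries. Retrieval libraries were close together, whereas non-retrieval replicates 3 and 4 were well below replicates 1 and 2. The means were 90.8 ± 2.31 CPM in retrieval and 72.3 ± 9.25 CPM in non-retrieval libraries (SD, n = 4 each; log2 fold change 0.33, SE 0.08; edgeR adjusted p = 0.0261). The call was lost without retrieval replicate 3 (edgeR adjusted p = 0.0539), retrieval replicate 4 (0.0681), or non-retrieval replicate 3 or 4 (0.1001 each). It was also lost with the myelin covariate (0.327) and with an offset for gene length alone (log2 fold change 0.22; edgeR adjusted p = 0.0723), and held with an offset for length and GC content (0.21; edgeR adjusted p = 0.0298).

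Crebbp, the CREB-binding protein gene, was also higher in every retrieval library, by a smaller amount. Its level was 79.2, 84.5, 86.3 and 82.5 CPM in retrieval libraries and 77.5, 74.2, 65.5 and 59.8 CPM in non-retrieval libraries. The groups did not overlap, though retrieval replicate 1 and non-retrieval replicate 1 were nearly equal. The log2 fold change was 0.26 (SE 0.08), which did not pass in edgeR (adjusted p = 0.0631) but passed in DESeq2 (adjusted p = 0.0278) and limma-voom with quality weights (adjusted p = 0.0201). The offset for length and GC content left a difference of 0.15 on the log2 scale (edgeR adjusted p = 0.116).

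Kat2b encodes PCAF, a GNAT-family acetyltransferase. It had 19.4, 18.6, 18.5 and 18.1 CPM in retrieval libraries and 16.4, 14.4, 16.1 and 14.8 CPM in non-retrieval libraries. All retrieval libraries were above all non-retrieval libraries, with a log2 fold change of 0.27 (SE 0.08; edgeR adjusted p = 0.0617). DESeq2 (adjusted p = 0.0298) and limma-voom with quality weights (adjusted p = 0.0452) placed it past the threshold, as did edgeR with the length and GC offset (adjusted p = 0.0236). Of 21 alternatives, 6 called Kat2b. None of the 8 fits with 1 library left out did (edgeR adjusted p = 0.0652 to 0.175). The other 6 writers did not pass, with log2 fold changes between -0.10 for Kat5, the catalytic subunit of the NuA4 complex, and 0.08 for Kat8, which acetylates histone H4. Kat6b, Kat7, Kat2a and Hat1, which acetylates newly made histone H4, lay between these.

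**Figure D3:**
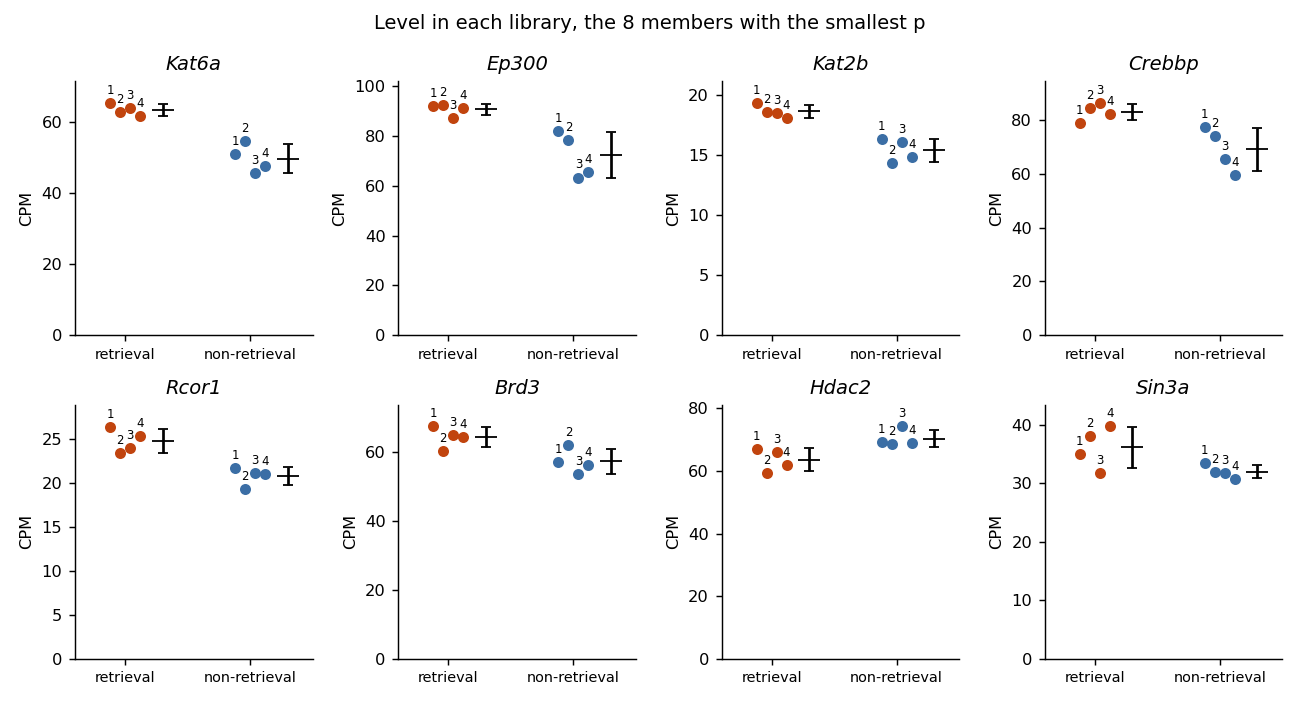
Level of the 8 members with the smallest p in each library, in CPM; points are libraries numbered by replicate, retrieval on the left and non-retrieval on the right of each panel, and bars give mean ± SD over 4 libraries. The panels of Kat6a, Ep300, Kat2b, Crebbp and Rcor1 have no overlap between groups, Hdac2 is lower in every retrieval library, and Brd3 and Sin3a overlap.

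Paralogues of the family were set against each other within each library, since their ratio does not depend on how libraries are scaled. Of 7 pairs, Kat6a/Kat6b and Kat2a/Kat2b had ratios that did not overlap between groups. Kat6a and Kat2b each separated the groups on their own in the same libraries, so these ratios are not independent of the comparisons above. The log2 ratio of Kat6a to its paralogue Kat6b was 0.11, 0.24, 0.21 and 0.36 in retrieval libraries and -0.20, -0.08, -0.19 and -0.15 in non-retrieval libraries, so Kat6a had more reads than Kat6b in each retrieval library and fewer in each non-retrieval library. Per length of the gene model Kat6a was above Kat6b in every library, at 4.99 to 7.12 against 2.86 to 3.59 FPKM. The difference in log2 ratio between groups was 0.38 (SE 0.06; exact two-sided permutation test, p = 0.0286, the smallest that 70 arrangements can give; 0.10 after adjustment over the 7 pairs). It ran between 0.34 and 0.42 with any 1 library left out. Kat6b itself stood at 54.3 ± 5.12 CPM in retrieval and 55.3 ± 3.37 CPM in non-retrieval libraries (SD, n = 4 each; log2 fold change -0.03, SE 0.08; edgeR adjusted p = 0.891).

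The log2 ratio of Kat2a, which encodes GCN5, to Kat2b was 1.77, 2.09, 2.04 and 2.03 in retrieval libraries and 2.13, 2.35, 2.32 and 2.46 in non-retrieval libraries. Every retrieval library was below every non-retrieval library, and the difference was -0.34 (SE 0.10; exact two-sided permutation test, p = 0.0286, and 0.10 after adjustment over the 7 pairs). Kat2a alone averaged 74.0 ± 5.75 CPM in retrieval and 77.1 ± 5.004 CPM in non-retrieval libraries (SD, n = 4 each; edgeR adjusted p = 0.701). For Crebbp/Ep300 the ratio differed by -0.07 (SE 0.06; exact permutation p = 0.286). Hdac1/Hdac2 differed by 0.10 (SE 0.10; exact permutation p = 0.40), Brd2/Brd3 by -0.19 (SE 0.08; exact permutation p = 0.0857), Brpf1/Brpf3 by 0.03 (SE 0.05; exact permutation p = 0.514) and Sin3a/Sin3b by 0.09 (SE 0.07; exact permutation p = 0.171). With 70 arrangements and 7 pairs, an adjusted p under 0.05 was out of reach unless most pairs gave the smallest p, so the adjusted values say little about any single pair.

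**Figure D4:**
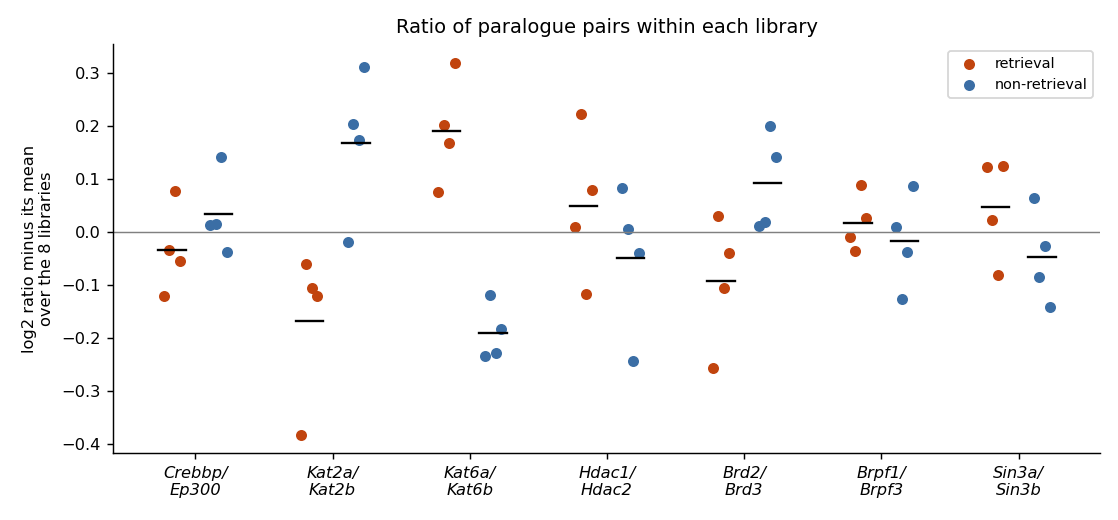
Log2 ratio of the 2 genes of each pair in each library, minus the mean over the 8 libraries; points are libraries, retrieval in red on the left and non-retrieval in blue on the right of each pair, and bars are group means. Kat6a/Kat6b and Kat2a/Kat2b separate the groups in opposite directions, and the other 5 pairs overlap.

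Among the erasers none of 13 passed, and 10 had a log2 fold change below 0, against 8748 of all 16745 tested genes. Hdac2, a class I deacetylase of the Sin3, NuRD and CoREST complexes, was nearest. Its level was 67.0, 59.3, 66.1 and 61.7 CPM in retrieval libraries and 69.3, 68.6, 74.3 and 68.9 CPM in non-retrieval libraries. All retrieval libraries were lower, by a log2 fold change of -0.15 (SE 0.06; edgeR adjusted p = 0.229). Hdac3, the deacetylase that binds the Ncor1 protein, chosen after its values were seen, had 64.7, 66.1, 64.5 and 63.9 CPM in retrieval and 70.4, 70.2, 67.2 and 69.9 CPM in non-retrieval libraries. These groups did not overlap either, and the log2 fold change was -0.10 (SE 0.06; edgeR adjusted p = 0.375). All 4 class I genes, with Hdac1 and Hdac8, had values below 0. The class IIb gene Hdac6, whose product deacetylates tubulin in the cytoplasm, was at 0.02 (SE 0.07) and Hdac10, a polyamine deacetylase, at -0.02 (SE 0.11) on the log2 fold change scale.

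The 6 sirtuins had log2 fold changes between -0.16 for Sirt5 and 0.17 for Sirt2. Sirt2, a cytoplasmic deacetylase that is abundant in oligodendrocytes and was singled out after its values were seen, had 102, 142, 123 and 134 CPM in retrieval and 104, 122, 105 and 114 CPM in non-retrieval libraries. It was highest in retrieval replicates 2 and 4, the libraries with the most myelin signal, at 6671 and 6108 CPM summed over the 20 myelin markers. Retrieval replicate 1 did not follow that order, with the lowest Sirt2 of all 8 libraries and a myelin sum of 4741 CPM, above every non-retrieval library. Its log2 fold change was 0.17 (SE 0.09; edgeR adjusted p = 0.320), and -0.09 (edgeR adjusted p = 0.739) with the myelin covariate. Without retrieval replicate 1 it was 0.27 and passed (edgeR adjusted p = 0.0260). The part of myelin content in the Sirt2 values was not tested beyond the covariate fit. Sirt1 was at 0.08 (SE 0.10), and the chromatin and nucleolar sirtuins Sirt6 and Sirt7 at -0.08 (SE 0.11) and -0.05 (SE 0.08). The mitochondrial Sirt3 was at -0.14 (SE 0.07; edgeR adjusted p = 0.308).

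Of the 9 readers and scaffolds none passed, and 8 had a log2 fold change above 0, against 7997 of all 16745 tested genes. Rcor1, the CoREST scaffold that joins HDAC1 and HDAC2 to a histone demethylase, had 26.4, 23.4, 24.0 and 25.35 CPM in retrieval and 21.7, 19.35, 21.1 and 21.0 CPM in non-retrieval libraries. The groups did not overlap, with a log2 fold change of 0.25 (SE 0.08; edgeR adjusted p = 0.0759, DESeq2 adjusted p = 0.0348 and limma-voom with quality weights adjusted p = 0.04496). Rcor1 was called in 6 of 21 alternatives. It was called in none of the 8 fits with 1 library left out (edgeR adjusted p = 0.0748 to 0.185). Brd3, a BET reader, had 67.6, 60.4, 64.9 and 64.5 CPM in retrieval and 57.1, 62.1, 53.6 and 56.4 CPM in non-retrieval libraries. One non-retrieval library, replicate 2, was above the lowest retrieval library (log2 fold change 0.17, SE 0.07; edgeR adjusted p = 0.171).

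Sin3a, a scaffold that holds class I deacetylases, had 35.0, 38.1, 31.8 and 39.8 CPM in retrieval and 33.5, 32.0, 31.8 and 30.7 CPM in non-retrieval libraries. Its groups overlapped, since retrieval replicate 3 lay within the non-retrieval range (log2 fold change 0.18, SE 0.08; edgeR adjusted p = 0.239). Ncor1, the scaffold of HDAC3, had the most reads of all members, at 279 ± 9.34 CPM in retrieval and 256 ± 16.5 CPM in non-retrieval libraries (SD, n = 4 each; edgeR adjusted p = 0.284). Brd1, Brpf1 and Brpf3, which scaffold the MYST acetyltransferases, were all between 0.04 and 0.07 on the log2 fold change scale, and Brd2 was at -0.02. Acss2, which supplies acetyl-CoA from acetate, had a log2 fold change of -0.11 (SE 0.07; edgeR adjusted p = 0.406).

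Summed over the genes of a role, levels differed little. The 10 writers summed to 95.1 ± 1.96 FPKM in retrieval and 93.7 ± 3.07 FPKM in non-retrieval libraries (SD, n = 4 each). The 7 HDACs summed to 87.7, 94.2, 88.0 and 92.1 FPKM in retrieval libraries and 93.4, 94.3, 97.1 and 98.6 FPKM in non-retrieval libraries, with retrieval replicate 2 above non-retrieval replicate 1. Readers and scaffolds summed to 104 ± 1.74 FPKM in retrieval and 98.9 ± 2.98 FPKM in non-retrieval libraries. Writers over erasers gave a ratio of 0.691 ± 0.0261 in retrieval and 0.661 ± 0.0160 in non-retrieval libraries (SD, n = 4 each), with groups that overlapped. In retrieval libraries Hdac11 and Sirt2 gave 41.3 and 24.9 of the 138 FPKM summed over erasers. In non-retrieval libraries they gave 43.7 and 22.1 of 142 FPKM. Since the erasers include cytoplasmic and mitochondrial enzymes and leave out class IIa HDACs, the ratio does not measure a balance of histone acetylation.

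Gene length moved with the fold changes. Across all 16745 tested genes, longer gene models had higher log2 fold changes (Spearman rho 0.20), and across the 33 members rho was 0.42; these are descriptions across genes that share the same 8 libraries. When tested genes were split into 3 classes of about equal number by length, the longest class (5444 bases or more) had a median log2 fold change of 0.03 with 7.26% of genes called, and the shortest class had a median of -0.05 with 2.69% called. The longest class held 17 members, with a median of 0.05 and both calls, and the shortest held 4 members, with a median of -0.09. Ep300 (14273 bases) and Crebbp (13540 bases) are among the longest, whereas Kat6b, at 16826 bases the longest of all members, was at -0.03. By role, the median length was 4839 bases for erasers, 5201.5 for writers and 7336 for readers and scaffolds. The part of length in the direction of each role was not tested. Kat6a (9180 bases) kept its call with either length offset, with values of 0.29 (edgeR adjusted p = 0.0135) for length alone and 0.30 (edgeR adjusted p = 0.00195) for length and GC content. Under the length and GC offset, Ep300, Kat2b, Kat6a and Rcor1 were called, 4 of 33 members (7.74% of all tested genes were called in that fit).

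**Figure D5:**
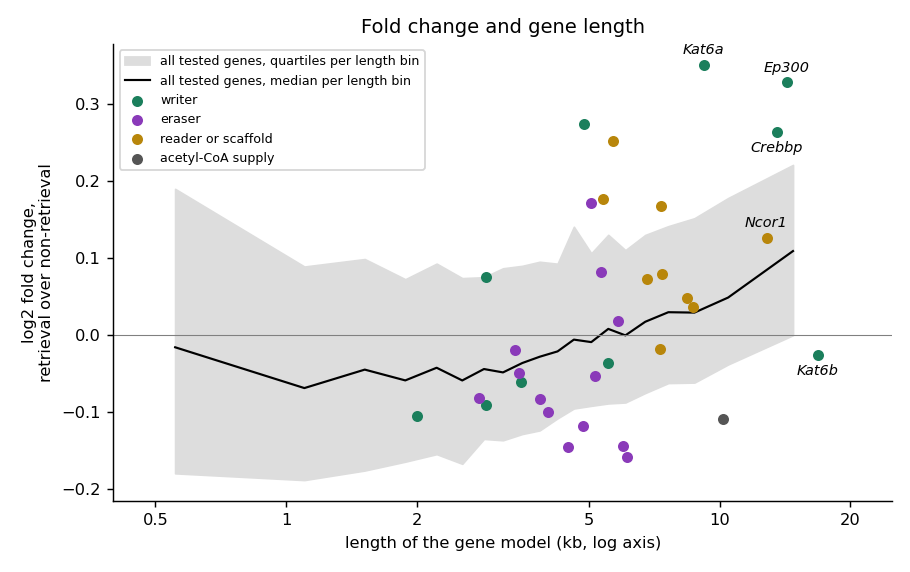
Log2 fold change of each member, retrieval over non-retrieval, against the length of its gene model in kilobases on a log axis; the black line and grey band give the median and quartiles of all tested genes in 20 bins of length. Kat6a, Ep300, Crebbp, Kat2b, Rcor1, Brd3, Sin3a and Sirt2 lie above the band, and Hdac2, Hdac8, Sirt3, Sirt5 and Acss2 lie below it. Kat6b, to the right of the last bin's median length, lies below 0.

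Sequence before the transcription start was read for the members in RefSeq's table (GRCm38.p6), which held 29 of the 33. The windows of 4 are shown because they pair with the contrasts above: Kat2b and its paralogue Kat2a, whose ratio separated the groups, Rcor1, whose retrieval libraries were all higher, and Hdac2, whose retrieval libraries were all lower. Each runs 5′ to 3′ on the gene's strand from 250 bases before the start and stops where a GENCODE exon begins, at chr17:53566721-53566860 (+ strand) for Kat2b, chr11:100712468-100712717 (- strand) for Kat2a, chr12:111039117-111039350 (+ strand) for Rcor1 and chr10:36974294-36974543 (+ strand) for Hdac2. Capitals mark matches on either strand to the short CRE site TGACG or the AP-1 site TGANTCA.
Kat2b: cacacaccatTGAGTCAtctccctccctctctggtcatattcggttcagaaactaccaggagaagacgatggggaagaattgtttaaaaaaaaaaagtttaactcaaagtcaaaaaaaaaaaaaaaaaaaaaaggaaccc
Kat2a: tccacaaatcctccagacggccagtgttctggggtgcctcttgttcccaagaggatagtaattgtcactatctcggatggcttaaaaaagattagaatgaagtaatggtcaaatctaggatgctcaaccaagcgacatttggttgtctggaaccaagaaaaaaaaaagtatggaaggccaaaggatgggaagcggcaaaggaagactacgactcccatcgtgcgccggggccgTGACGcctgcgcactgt
Rcor1: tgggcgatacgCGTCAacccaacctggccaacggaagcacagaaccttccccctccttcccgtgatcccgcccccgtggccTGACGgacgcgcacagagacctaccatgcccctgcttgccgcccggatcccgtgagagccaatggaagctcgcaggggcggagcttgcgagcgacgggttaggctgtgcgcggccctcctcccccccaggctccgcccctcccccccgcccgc
Hdac2: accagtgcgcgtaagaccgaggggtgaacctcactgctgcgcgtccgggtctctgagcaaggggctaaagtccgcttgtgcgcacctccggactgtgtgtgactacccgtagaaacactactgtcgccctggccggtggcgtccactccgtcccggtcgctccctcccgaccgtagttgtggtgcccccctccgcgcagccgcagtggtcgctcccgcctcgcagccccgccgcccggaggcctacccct
The Kat2b window holds 1 match to the AP-1 letters, the Kat2a window 1 and the Rcor1 window 2 matches to the short CRE site, and the Hdac2 window none of these. Over the whole 250 bases, the short site, which the full CRE TGACGTCA contains, was found in 12 of 29 members (41.4%), against 19.8% of 27025 genes in the table. Kat2b was among the 12, with its match outside the 140 bases shown. All 29 members passed the filter on low counts, whereas the 27025 genes were not limited to those that did. No share over tested genes or over windows of like GC content was taken, so why the shares differ was not tested. The full CRE was found in 0 of 29 members and 1.77% of genes, the AP-1 letters in 2 members (Kat2b and Kat8) and 7.82% of genes, and the EGR letters GCGNGGGCG in 2 members (Ep300 and Sirt1) and 5.33% of genes. These matches are descriptions of letters, and binding was not measured.

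Other genes of the same pathway were read from 4 lists of complex subunits, further readers and enzymes that supply acetyl-CoA or NAD. Of 121 tested genes, 7 rose and 0 fell (5.79%, against 4.57% of all tested genes; median log2 fold change 0.01). Among 47 subunits of acetyltransferase complexes, Jade2, a scaffold of KAT7 complexes, rose to 124 ± 4.99 CPM in retrieval, against 93.8 ± 2.84 CPM in non-retrieval libraries (SD, n = 4 each; log2 fold change 0.40, SE 0.06; edgeR adjusted p = 0.000674). Its call held with any 1 library left out. Trrap, the large scaffold of the SAGA and NuA4 complexes, rose as well (0.30, SE 0.07; edgeR adjusted p = 0.0309), and the coactivator Ncoa3 was at 0.22 (edgeR adjusted p = 0.0923). The call of Trrap was lost in 6 of the 8 fits with 1 library left out (edgeR adjusted p up to 0.110) and with the length and GC offset (edgeR adjusted p = 0.141).

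Among 37 subunits of deacetylase complexes 4 rose. Gse1, a partner of CoREST, rose to 76.5 ± 11.9 CPM in retrieval, against 50.9 ± 6.26 CPM in non-retrieval libraries (SD, n = 4 each; log2 fold change 0.59, SE 0.10; edgeR adjusted p = 0.00326), and held with any 1 library left out. Sap30 (0.57, SE 0.13; edgeR adjusted p = 0.0198) and Sap130 (0.32, SE 0.08; edgeR adjusted p = 0.0276), both of the Sin3 complex, rose. The call of Sap30 was lost in 4 and that of Sap130 in 5 of the 8 fits with 1 library left out, at edgeR adjusted p up to 0.0710 for Sap30 and 0.1002 for Sap130. Of 21 tested further readers, Bptf, the bromodomain subunit of a remodelling complex, rose (0.31, SE 0.08; edgeR adjusted p = 0.0352), a call lost in 5 of those 8 fits (edgeR adjusted p up to 0.117). Brwd3 (0.37; edgeR adjusted p = 0.0610) and Phip (0.35; edgeR adjusted p = 0.0720) did not pass. None of 16 acetyl-CoA and NAD supply genes passed in edgeR, and unadjusted p under 0.05 occurred in 0 of them; the smallest p were those of Nadsyn1 (0.37), Pdhb (-0.12) and Pdha1 (-0.11). With the myelin covariate, a fit that left 145 genes called in all, the 7 calls of these lists were lost, and among the genes named here the edgeR adjusted p ran from 0.0868 for Jade2 to 0.661 for Sap130. The log2 fold change in that fit was 0.55 for Sap30, 0.33 for Jade2 and 0.30 for Bptf, and 0.29 for Gse1, 0.14 for Trrap and 0.11 for Sap130. The part of cell composition and of gene length in these differences was not tested beyond the fits given here.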

How the data were processed

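Libraries were made from total RNA with the NEBNext Ultra kit after RNeasy Micro extraction, per the labels' protocols. The authors deposited raw read counts per gene; HISAT2 2.0.5, featureCounts 1.5.0-p3 and the build GRCm38 are named in the submitters' processing notes. The strand setting of the counting is not given in the sources used here, nor is the annotation release. Of the 33 members, 20 overlap another gene of the table, and for 6 (Ncor1, Sirt2, Sirt3, Sirt7, Acss2 and Kat5) such a gene had 100 counts or more in a library, so reads may be shared between them. Pseudogene rows of Kat2b and Kat6b held at most 1 count.

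Counts were filtered with filterByExpr and scaled with TMM factors in edgeR 4.0.16 (R 4.3.3). Groups were compared over all 16745 genes with the quasi-likelihood F test (two-sided) and Benjamini-Hochberg adjustment, with calls at an adjusted p under 0.05. Standard errors are the log2 fold change over the square root of F. FPKM are scaled CPM per kilobase of the deposited gene length. Paralogue ratios used log2 CPM with a prior count of 2. GC content came from GENCODE M21 transcripts of the same build, for 99.9% of tested genes. Only the main edgeR fit was run on simulated counts with known changes. It recovered 14 of 50 genes changed by 0.3 on the log2 scale (28%) and 38 of 49 changed by 0.5 (77.6%). Of its 157 calls, 14 were of unchanged genes. The changed genes were drawn from all tested genes, whose group means started at 0.13 CPM. Group means of the members started at 8.05 CPM, so these rates are not those of the members. A member that did not pass may still differ, to the extent of its own standard error (0.06 to 0.11 over the 31 members). Alternatives used DESeq2 1.42.0, limma 3.58.1 (voom with library quality weights) and sva 3.50.0. The members and gene lists were chosen with earlier results of these data known. Values of every library are given for the 8 members with the smallest p, and up to 3 genes are named from each other list. One gene called in these lists is not reported here. Libraries of a group were compared in pairs to look for duplicate deposits, and none was found.

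Both groups carry replicate numbers 1 to 4, which no label ties to a litter or day. The correlation of same-numbered libraries' deviations from their group means was 0.03 to 0.22 and above 0.1 for 1 of 4 pairs. All 8 libraries nevertheless correlated best with the library of their own number. Since no label states a pairing, the main fit did not use the numbers as pairs. A fit with the replicate block called 1791 genes, against 766 in the main fit, and 5 members higher, against 2. Whether the numbers mark pairs was not tested further.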

Additional observations from a re-analysis of the deposited data

Results flagged for a closer look

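In 4 of the 66 groups of 4 libraries examined (33 members in each group), 1 library was far from the other 3 by Dixon's test, and chance flags about 1 in 20. Non-retrieval replicate 3 had 74.3 CPM of Hdac2, against 68.6 to 69.3 CPM in the other non-retrieval libraries. The same library had 67.2 CPM of Hdac3 (against 69.9 to 70.4 CPM) and 46.5 CPM of Hdac6 (against 48.4 to 48.7 CPM). Retrieval replicate 1 had 16.3 CPM of Sirt1, against 12.7 to 13.3 CPM in the other retrieval libraries. All 4 lie in genes that did not pass in edgeR.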

How the results depend on the processing

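All 726 values of the members' log2 fold changes under 22 alternatives were recomputed: 665 kept their direction and their side of the threshold, 25 passed newly, 7 no longer passed, and 29 had another sign, none of them in Kat6a, Ep300, Crebbp, Kat2b or Rcor1. The number of members called higher was 2, and 5 with DESeq2, 5 with limma-voom with quality weights, 5 at an adjusted p under 0.1, 6 with 1 surrogate variable, 4 with the length and GC offset, 1 with the length offset and 0 with the myelin covariate; with 1 library left out it ran between 1 and 4. It was 1 without retrieval replicate 3 or 4 or non-retrieval replicate 3 or 4, and 4 without retrieval replicate 1. All genes called numbered 766, and 1182 with limma-voom with quality weights, 1173 at an adjusted p under 0.1, 1296 with the length and GC offset, 145 with the myelin covariate, 1796 with 1 surrogate variable and 330 to 1360 with 1 library left out (330 and 331 without non-retrieval replicates 4 and 3, 397 and 420 without retrieval replicates 4 and 3, 1360 without retrieval replicate 1). Rises were 80.3% of all calls, against 68.8% with the length offset and 59.6% with the length and GC offset, 54.3% with the block added and 91.7% with the myelin covariate. With the replicate block, 1791 genes were called in all and 5 members higher (Kat6a, Ep300, Crebbp, Kat2b and Rcor1); with the block and the length and GC offset, 1882 genes were called, 4 members higher and 1 lower, Acss2 (-0.17). The numbers are no known pairing, although all 8 libraries correlated best with the library of their own number. Paralogue ratios moved by less than 1 SD in each alternative run.

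Signs changed in genes that did not pass in edgeR. With the length offset Brd1 was at -0.0082, Hdac6 at -0.010 and Brpf3 at -0.022, with length and GC at -0.023, -0.027 and -0.045, and with the replicate block added at -0.024, -0.029 and -0.043. With the myelin covariate Sirt2 was at -0.094, Kat6b at 0.080, Hat1 at 0.032, Hdac6 at -0.088, Sin3b at -0.061, Kat7 at 0.0067 and Brpf3 at -0.13, and with the striatal covariate Hdac6 at -0.046 and Brpf3 at -0.0092. Hdac6 was at -0.0081 with upper-quartile factors. With 1 library left out, Kat6b ran between -0.074 and 0.028, Brd2 between -0.043 and 0.020, Sirt7 between -0.11 and 0.011, Hdac6 between -0.039 and 0.060, Sirt6 between -0.18 and 0.0025, Hdac10 between -0.13 and 0.050, and Brpf3 between -0.0036 and 0.11. The cause was not tested.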
